A study of Mus musculus with 6 samples.

Results

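Autophagy is the delivery of cell contents to the lysosome in double-membraned vesicles, and mitophagy is its use on mitochondria, which maturing red cells discard together with their other organelles. The kinase Ulk1 starts the vesicle, Atg7, Atg5 and Atg12 belong to the enzyme systems that attach LC3 and GABARAP proteins to its membrane, and receptors such as Bnip3 and Bnip3l (also called Nix) tie mitochondria to these proteins. Foxo3 is a transcription factor that activates autophagy and antioxidant genes, in erythroid cells among others. The 10 genes described here are Foxo3, Ulk1, Atg5, Atg7, Atg12, Map1lc3a, Map1lc3b, Gabarapl2, Bnip3 and Bnip3l. They were taken as a named list, and every probe set annotated to one of them was used, 28 of the 45101 on the array, where 18193 genes have a probe set of their own. Of the 28, 24 list 1 gene and 4 are shared. The 3 probe sets of Bnip3l also list the pseudogene Bnip3l-ps, and 1 of the 4 probe sets of Foxo3 also lists Gm38485, so that the transcripts cannot be told apart in them.

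RNA came from 3 fetal liver samples labelled as homozygous Eklf knockout and 3 labelled wild type, all at embryonic day 13.5 and all given as strain C57BL/6. Each sample was hybridised to 1 single-colour Affymetrix array. Eklf, gene symbol Klf1, is a transcription factor of the red cell lineage that binds CACCC sequences, and its loss stops red cell maturation in the fetal liver. The cells were sorted as early erythroid progenitors by CD71, Ter119 and a dead-cell dye, and the comparison asks how their transcripts differ without the factor. The knockout label cites the mice of an earlier study and targeted clones injected into C57BL/6 blastocysts. Neither litter nor sex of the embryos is stated in the labels. The arrays are called KO and WT below, after these labels.

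Klf1 itself did not separate the groups, at 3505, 1391 and 2545 on the KO arrays against 2508, 2706 and 4030 on the WT arrays (limma adjusted p = 0.347). KO and WT are therefore names of labels and not of a measured loss, since no source says whether this probe set lies inside the deleted stretch. Of 7 tested erythroid markers 5 rose on the KO arrays and Kit, a marker of immature progenitors, fell. Other cell types differed between the groups too. All 8 tested hepatocyte markers rose, with a summed signal of 92961 to 159474 on the KO arrays against 7578 to 8171 on the WT arrays, as did 6 of 6 megakaryocyte markers (29839 to 39488 against 6738 to 7575) and 6 of 8 endothelial and stromal markers (12625 to 17774 against 1719 to 2059). All 6 tested lymphoid markers fell, and the sums over the 7 with a probe set were 559 to 852 against 17116 to 25317. The other lymphoid marker, Cd3e, was under the filter and lay higher on every KO array (67.8 to 77 against 26.8 to 44.4). Of 8 granulocyte and mast cell markers 5 fell and 3 did not pass, and their sums overlapped (75734 to 159986 against 128429 to 147727). Of 7 tested macrophage markers 5 were higher and 1, Csf1r, lower, and the sums over all 10 listed overlapped (10605 to 13480 against 10326 to 12574). Of those under the filter, C1qa and Timd4 lay higher on every KO array and Cd163 overlapped. The part of these cells in the differences below was not tested, and in such samples fewer cells of a type and less RNA per cell cannot be told apart. The 18 probe sets of the spiked hybridisation controls read 1.97- to 6.42-fold the WT mean on KO arrays 2 and 3, above every WT array, and 0.853- to 1.99-fold on KO array 1, which lay under the highest WT array in 3 of them. The 3′ to 5′ signal ratio of Gapdh, a measure of intact RNA, was 0.8 to 0.85 on the KO arrays and 0.82 to 0.88 on the WT arrays.

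Bnip3 had the largest rise among the probe sets that were bright in both groups, 10.5-fold, and Foxo3, Ulk1, Map1lc3a and the shared Bnip3l probe sets also rose, by 1.5- to 2.4-fold in all but 1 dim probe set of Foxo3. Map1lc3b had 1 probe set that rose, by 2.11-fold, and its other tested ones did not pass. Atg5 and Atg7 had 1 probe set each that fell. Atg12 and Gabarapl2 had none that passed the test. Of the 28 probe sets, 23 had a mean log2 signal above the filter (6.62, a signal of 98.6, the 40th percentile of all probe sets). Each was tested with limma among all 27023 probe sets above it, with Benjamini-Hochberg adjustment and a threshold of 0.05. Of the 23, 13 were higher, 2 were lower and 8 did not pass, where 43.8% of all probe sets tested passed, 28.1% higher and 15.7% lower. Their median log2 difference, KO minus WT, was 0.66, beside 0.32 for all probe sets tested. The values of the groups did not overlap for 15 of the 23, 12 above and 3 below, beside 57.6% of all probe sets above the filter (37.5% above and 20.1% below). With 3 arrays per group the number of arrays limits the precision of every difference.

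These counts depend on the scaling of the arrays. Each array has a trimmed mean of 500, but the median signals differed, at 204, 218 and 214 for KO against 128, 140 and 97.7 for WT. Setting the medians equal moved the median difference of all probe sets tested to -0.49 and left 2 probe sets higher and 6 lower of the 23. Quantile normalization and cyclic loess each left 10 higher and 2 lower. Over all probe sets tested, 7595 were higher and 4243 lower as deposited, 4183 and 4742 after quantile normalization, 4267 and 4655 after cyclic loess and 2101 and 10273 with equal medians. The 13 and 2 became 6 and 2 without KO array 3, 7 and 2 without WT array 2 and 8 and 2 without KO array 2. Foxo3 1450236_at, among the 13, and Atg7 1428611_at, among the 2, passed the filter only through the group where they are high.

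**Figure D1:**
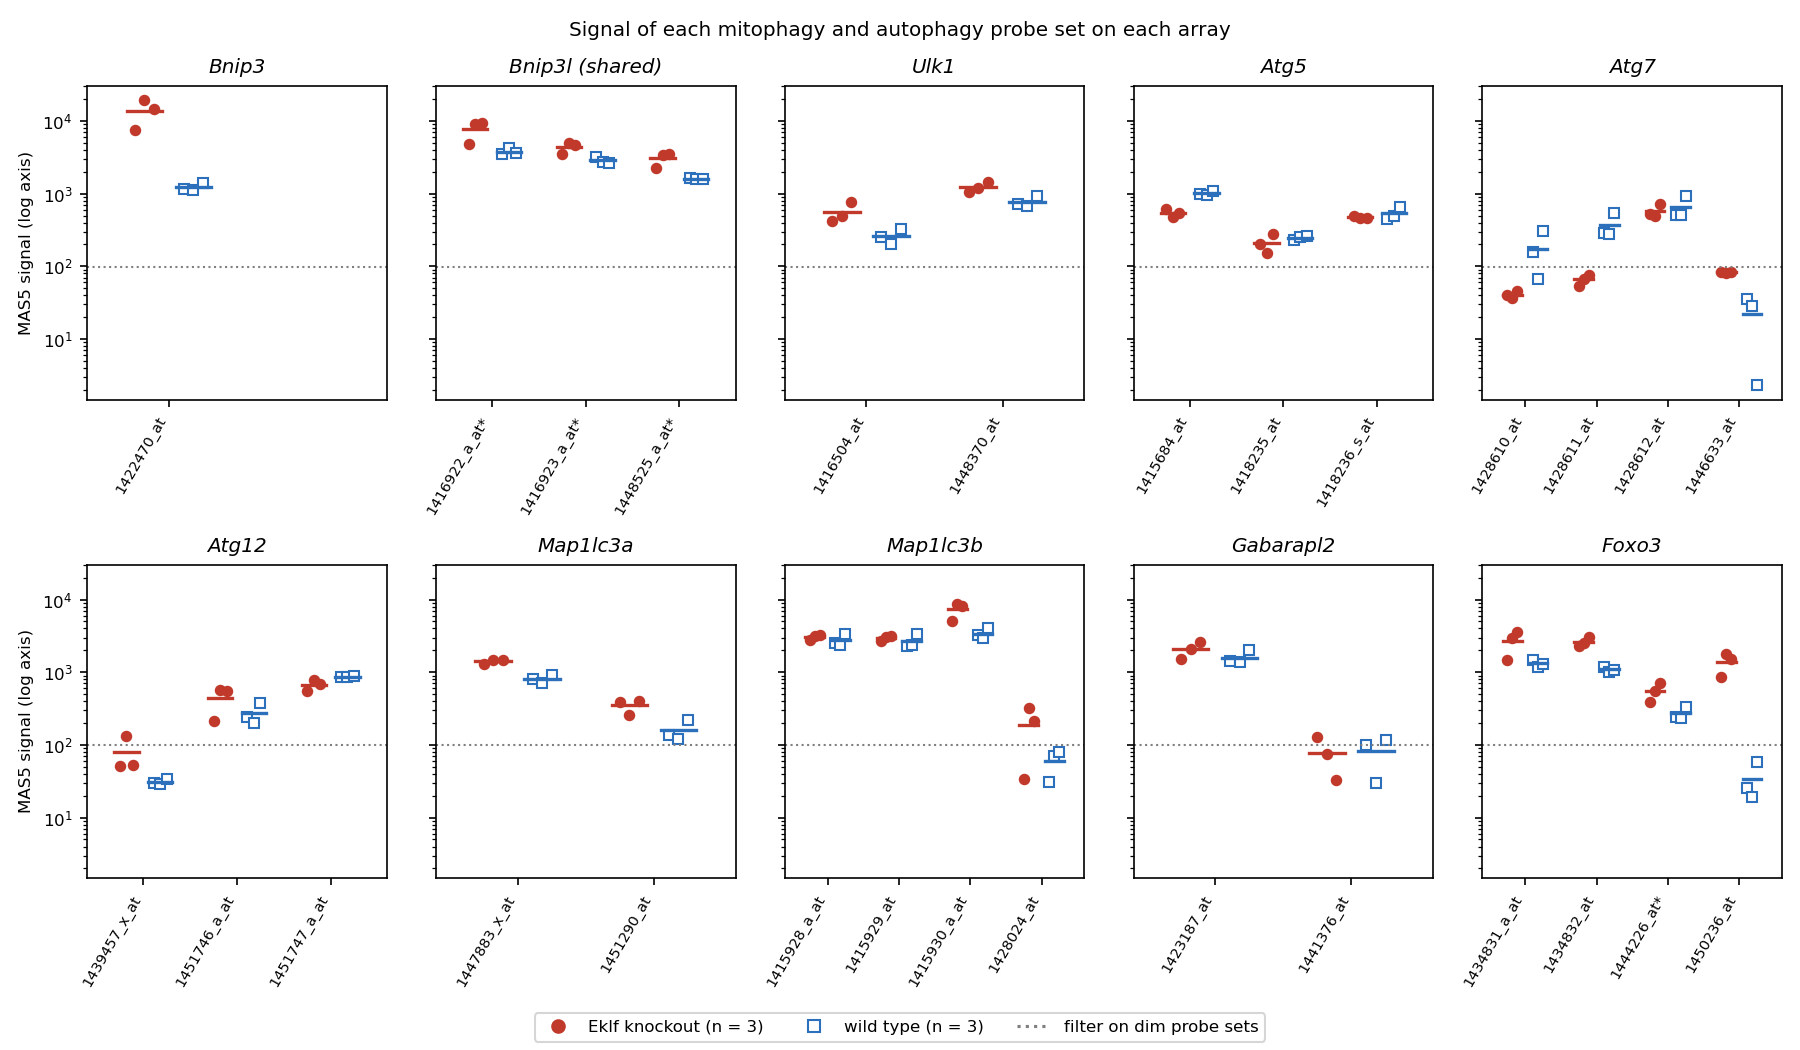
Signal of each of the 28 probe sets on each array, on a log axis, with KO arrays as filled red circles, WT arrays as open blue squares, group means as bars, shared probe sets marked by an asterisk and the filter at 98.6 as a dotted line. Bnip3 stands at 7449 to 19273 against 1108 to 1389, and the last Foxo3 probe set lies above the filter on the KO arrays and below it on the WT arrays.

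RefSeq promoters (GRCm38.p6, 250 bases before to 50 after the start) were at hand for 7 of the 10 genes: Bnip3, Ulk1, Atg5, Atg7, Map1lc3b, Gabarapl2 and Foxo3. They were searched on both strands for CACCC, the sequence Eklf is known for, and for AGATAA, which erythroid factors of the GATA family bind. ACGTG, a form of the core that hypoxia-inducible factors bind, was searched in the same way, and other forms of that core were not. CACCC was found in 3 of the 7 (Ulk1, Atg5 and Map1lc3b), beside 57.5% of all 32851 promoters in the table. ACGTG was found in 4 (Bnip3, Atg5, Atg7 and Gabarapl2), beside 19.6%, and AGATAA in 0, beside 11.2%. In Bnip3, Atg5 and Atg7 the ACGTG match is part of a longer palindrome, CACGTG, which holds ACGTG on both strands and which 7.15% of all promoters have. Of these, 3 are printed, that of Bnip3 for its large rise, that of Ulk1 for its 3 CACCC matches, and that of Atg5 for its fall. Capitals mark CACCC and ACGTG, read on either strand. A match is a string of letters, not a shown binding site.
Bnip3, chr7:138909457-138909756, minus strand: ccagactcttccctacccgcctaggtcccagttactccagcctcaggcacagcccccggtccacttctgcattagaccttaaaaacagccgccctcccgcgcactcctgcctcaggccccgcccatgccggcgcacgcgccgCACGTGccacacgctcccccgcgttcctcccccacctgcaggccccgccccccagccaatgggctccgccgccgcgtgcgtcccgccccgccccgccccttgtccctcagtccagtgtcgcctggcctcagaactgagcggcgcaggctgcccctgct
Ulk1, chr5:110810032-110810331, minus strand: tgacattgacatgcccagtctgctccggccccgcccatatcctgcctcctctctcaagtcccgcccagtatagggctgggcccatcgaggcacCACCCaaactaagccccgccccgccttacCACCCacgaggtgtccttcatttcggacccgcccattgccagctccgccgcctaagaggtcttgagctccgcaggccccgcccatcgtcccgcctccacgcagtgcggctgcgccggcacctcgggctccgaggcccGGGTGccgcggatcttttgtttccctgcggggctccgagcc
Atg5, chr10:44268089-44268388, plus strand: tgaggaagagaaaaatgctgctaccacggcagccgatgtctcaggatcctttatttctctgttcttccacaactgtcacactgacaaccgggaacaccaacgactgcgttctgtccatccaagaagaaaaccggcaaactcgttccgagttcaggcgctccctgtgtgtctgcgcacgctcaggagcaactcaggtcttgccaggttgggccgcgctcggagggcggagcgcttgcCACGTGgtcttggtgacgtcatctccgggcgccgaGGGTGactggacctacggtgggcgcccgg

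Foxo3 rose in all 4 of its probe sets. Probe set 1434832_at gave 2272, 2536 and 3037 on the KO arrays against 1180, 1020 and 1089 on the WT arrays. The groups did not overlap, and the log2 difference was 1.25 ± 0.17 (SE, limma adjusted p = 0.000668), a 2.37-fold rise. Probe set 1434831_a_at gave 1470, 2970 and 3599 against 1488, 1171 and 1306. Here KO array 1 lay below the highest WT array, and the difference was 0.93 ± 0.30 (SE, adjusted p = 0.0344). The probe set shared with Gm38485, 1444226_at, gave 384, 560 and 709 against 245, 236 and 332, a difference of 1.00 ± 0.29 (SE, adjusted p = 0.022) between groups that did not overlap.

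The fourth Foxo3 probe set, 1450236_at, behaved unlike the others. It gave 854, 1797 and 1516 on the KO arrays, against 25.6, 19.1 and 58.8 on the WT arrays, all 3 of which lie under the filter level. Its difference of 5.43 ± 0.47 (SE, adjusted p = 6.55e-05; 95% interval 4.37 to 6.50) is therefore a fold against dim signals, whose size is not fixed by these data: with an offset of 64 added to every signal it was 3.84. The interval did not overlap the intervals of the other Foxo3 probe sets, 0.86 to 1.63 for 1434832_at and 0.24 to 1.61 for 1434831_a_at. The difference between probe sets of the gene was not tested. The call of 1434831_a_at did not survive removal of any of KO array 2, KO array 3, WT array 2 or WT array 3 (adjusted p 0.0595 to 0.127), nor that of 1444226_at removal of KO array 2, KO array 3, WT array 1 or WT array 2 (0.0631 to 0.0837), while median centring left 1450236_at alone past the threshold (4.62). The call of 1444226_at was also lost after quantile normalization (0.658, adjusted p = 0.147) and cyclic loess (0.642, adjusted p = 0.145).

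Ulk1, the kinase that starts autophagy, rose in both of its probe sets. Probe set 1448370_at gave 1046, 1179 and 1465 on the KO arrays against 720, 675 and 942 on the WT arrays, and 1416504_at gave 418, 491 and 765 against 252, 201 and 325. In neither did the groups overlap, and the closest pair, 1046 against 942, was in the brighter one. The log2 differences were 0.66 ± 0.21 (SE, adjusted p = 0.0301) and 1.09 ± 0.30 (SE, adjusted p = 0.0191), rises of 1.58- and 2.12-fold. Leaving out KO array 3 or WT array 2 ended both calls (adjusted p 0.0604 to 0.114), leaving out KO array 2 or WT array 1 ended that of 1448370_at (0.0689 and 0.0909), and after median centring the differences were -0.155 and 0.27. The call of 1416504_at was also lost after quantile normalization (0.735) and cyclic loess (0.717), both with an adjusted p of 0.126.

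Among the conjugation genes Atg5, Atg7 and Atg12 no tested probe set passed as higher with the signals as deposited, all 6 arrays and no array weights. Atg5, which is joined to Atg12 and helps place LC3 on the membrane, gave 617, 479 and 534 at 1415684_at on the KO arrays against 1004, 969 and 1094 on the WT arrays. All 3 KO values lay well below the WT ones, a fall of 0.92 ± 0.19 on the log2 scale (SE, adjusted p = 0.00483), or 1.89-fold. The call stood in all 19 alternative fits of this probe set. Its other probe sets, 1418235_at and 1418236_s_at, overlapped between the groups and had differences of -0.27 (95% interval -0.97 to 0.42) and -0.16 (-0.66 to 0.35).

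Atg7, the enzyme that activates both Atg12 and the LC3 proteins, gave 4 probe sets that disagreed. The brightest, 1428612_at, gave 533, 489 and 716 on the KO arrays against 511, 502 and 924 on the WT arrays, with a difference of -0.12 ± 0.29 (SE, adjusted p = 0.759; 95% interval -0.76 to 0.53). The groups overlapped, and the sign rested on WT array 3, without which it was 0.17. At 1428611_at the signal was 53.2, 67.8 and 76.9 against 287, 281 and 536, a fall of 2.43 ± 0.38 (SE, adjusted p = 0.00146) to values under the filter level. With an offset of 64 added to every signal this difference was -1.69. The remaining probe sets were under the filter and not tested: 1428610_at gave 37.2 to 45.5 against 66.9 to 303, lower on every KO array, and 1446633_at gave 81.5 to 84.8 against 2.3 to 35.9, higher on every one. The Atg7 signals thus give no single direction for the gene.

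Atg12, the ubiquitin-like protein that is joined to Atg5, also had probe sets of both signs. At 1451747_a_at it gave 559, 780 and 685 on the KO arrays against 860, 859 and 888 on the WT arrays, groups that did not overlap, with a difference of -0.38 ± 0.19 (SE) that did not pass (adjusted p = 0.134). At 1451746_a_at it gave 215, 574 and 544 against 244, 199 and 373, where KO array 1 fell within the WT range. That difference, 0.63 ± 0.42 (SE, adjusted p = 0.237), passed only without KO array 1 (1.09, adjusted p = 0.0303) and with array weights (0.99, 0.0207). The third probe set, 1439457_x_at, was under the filter, at 51.6 to 133 against 29.2 to 34.2.

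Among the proteins that are attached to the vesicle membrane, Map1lc3a rose in both probe sets. It gave 1297, 1491 and 1475 at 1447883_x_at on the KO arrays against 797, 718 and 922 on the WT arrays, a difference of 0.81 ± 0.17 (SE, adjusted p = 0.00636). It gave 388, 262 and 401 at 1451290_at against 138, 122 and 219, a difference of 1.16 ± 0.33 (SE, adjusted p = 0.0217). The groups did not overlap in either. The call of 1451290_at was lost after quantile normalization (0.546), cyclic loess (0.512) and without any of KO array 1, KO array 3, WT array 1 or WT array 2 (adjusted p 0.0581 to 0.0728), and after median centring both calls were lost (-0.004 for 1447883_x_at).

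Map1lc3b, the LC3 protein most often followed in autophagy assays, gave a split result. At 1415930_a_at it stood at 5150, 8560 and 8186 on the KO arrays against 3261, 2953 and 4011 on the WT arrays, without overlap, a 2.11-fold rise (1.07 ± 0.22, SE, adjusted p = 0.00535) that was lost only after median centring (0.259) among 19 alternative fits. Its other bright probe sets, 1415928_a_at and 1415929_at, overlapped, at 2679 to 3241 against 2308 to 3355, and their differences were 0.165 and 0.163, with 95% intervals of -0.23 to 0.56 and -0.25 to 0.58. The interval of 1415930_a_at, 0.57 to 1.58, begins about where these end. A dim probe set, 1428024_at, was under the filter, at 33.9, 321 and 211 against 31.3, 70.9 and 79.3.

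Gabarapl2, of the GABARAP branch of this family, gave 1543, 2097 and 2583 at 1423187_at on the KO arrays against 1409, 1376 and 1994 on the WT arrays. The groups overlapped, and the difference of 0.37 ± 0.23 (SE, adjusted p = 0.214) had a 95% interval of -0.15 to 0.89, so that neither no change nor a rise of the size at 1447883_x_at of Map1lc3a lies outside it. Among 19 alternative fits it passed only with array weights (0.594, limma adjusted p = 0.0134). The other probe set, 1441376_at, was under the filter, at 32.6 to 129 against 30.2 to 118.

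**Figure D2:**
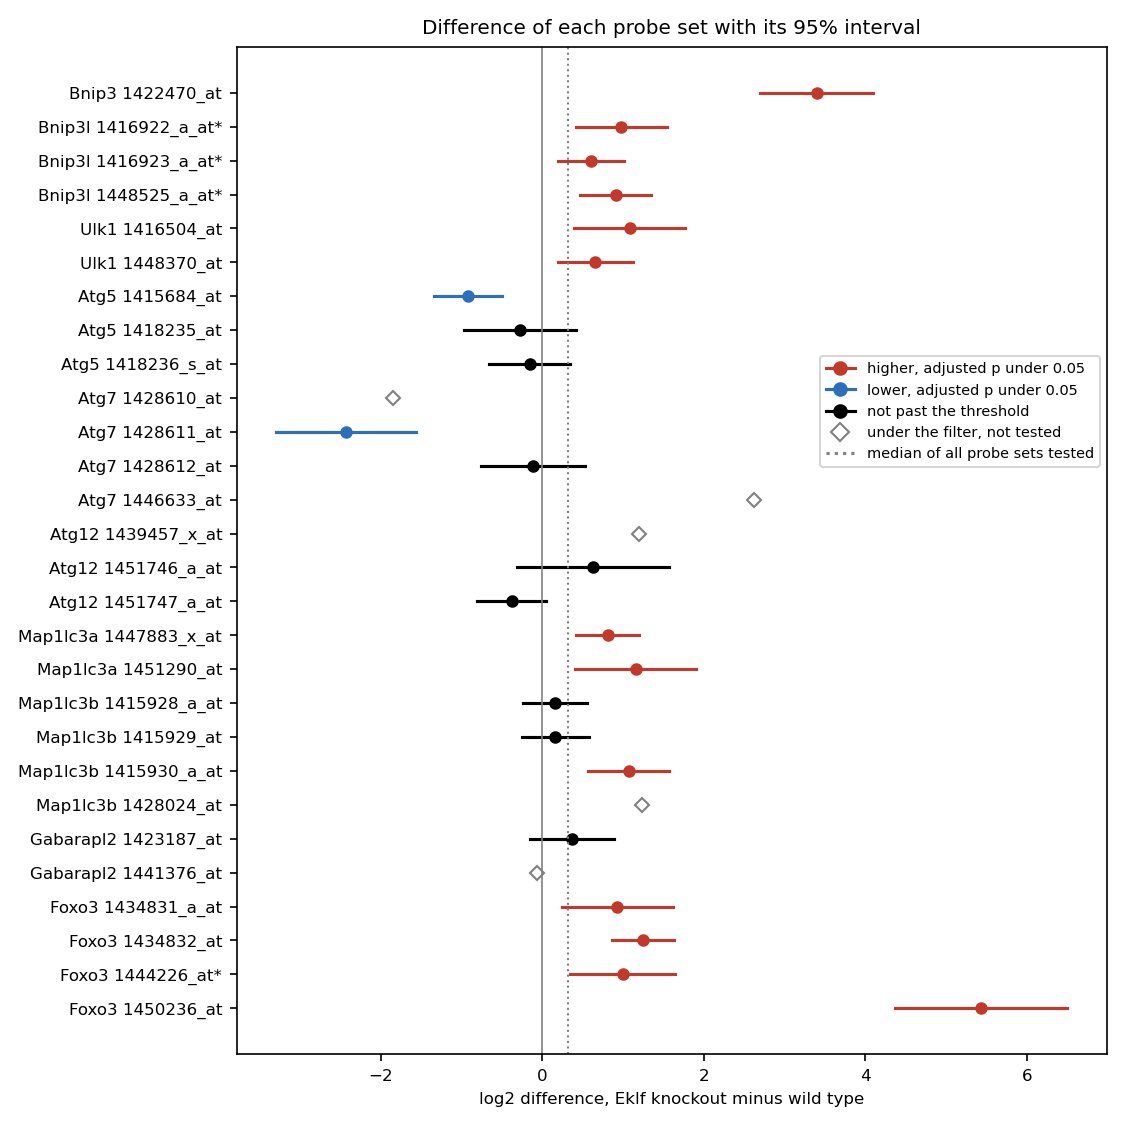
Log2 difference, KO minus WT, of each probe set (circles) with its 95% interval from limma, and of the 5 probe sets under the filter (open diamonds, not tested); red marks 13 higher, blue 2 lower at an adjusted p under 0.05 and black those that did not pass, an asterisk marks shared probe sets, and the dotted line is the median of all probe sets tested, 0.32. Bnip3 and the last Foxo3 probe set lie to the right of the rest, at 3.40 and 5.43, and Atg7 holds a pair of probe sets whose intervals lie apart.

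Bnip3, an outer mitochondrial membrane receptor known as a target of hypoxia-inducible factors, has 1 probe set, 1422470_at. It gave 7449, 19273 and 14533 on the KO arrays against 1161, 1108 and 1389 on the WT arrays. The lowest KO value was 5.37 times the highest WT one, and the KO values were spread more widely, at 13750 ± 5951 against 1219 ± 149 (SD, n = 3 each). The log2 difference was 3.40 ± 0.31 (SE, limma adjusted p = 7.88e-05; 95% interval 2.70 to 4.09), a 10.5-fold rise. It stayed between 2.58 and 3.79, and past the threshold, in all 19 alternative fits.

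Bnip3l, the mitochondrial receptor needed for the clearance of mitochondria from mouse reticulocytes, was seen through 3 probe sets that it shares with Bnip3l-ps. At 1416922_a_at the signal was 4851, 8954 and 9522 on the KO arrays against 3556, 4213 and 3582 on the WT arrays. At 1448525_a_at it was 2278, 3457 and 3505 against 1651, 1606 and 1573, and at 1416923_a_at 3484, 5029 and 4732 against 3236, 2724 and 2670. In none of the 3 did the groups overlap, and in each KO array 1 was the nearest to the WT arrays. The differences were 0.98 ± 0.25 (SE, adjusted p = 0.0133), 0.91 ± 0.19 (SE, adjusted p = 0.00616) and 0.61 ± 0.18 (SE, adjusted p = 0.0254), each smaller than the lower bound of the interval of Bnip3. Leaving out KO array 2 or 3 ended the calls of 1416922_a_at (adjusted p 0.0553 and 0.0558) and 1416923_a_at (0.0948 and 0.0897), the last also without WT array 2 (0.0793), and median centring ended all 3 (0.167, 0.094 and -0.21).

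KO array 1 was the lowest of its group in 12 of the 13 probe sets that rose (92.3%), the exception being 1451290_at of Map1lc3a. It was the lowest in 51.6% of all 7595 probe sets called higher. KO array 1 was also the lowest of its group in all 18 probe sets of the hybridisation controls, whose part in this pattern was not tested. The 13 probe sets cover only 6 genes, so these are not independent counts.

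The rises lay at bright and at dimmer probe sets. All probe sets tested were put in 4 equal bins by mean log2 signal. Of the 23 tested probe sets of the 10 genes 11 lay in the brightest bin (9.95 or more), among them all those of Bnip3 and Bnip3l. In this bin the median difference over all 6756 probe sets was -0.20, with 1051 called higher and 2127 lower. Of the 11, 8 were higher and 0 lower, with a median of 0.91, and the other 3 were Gabarapl2 and a pair of Map1lc3b probe sets. In the next bin down, where 1557 of 6755 probe sets were higher and 1295 lower, 5 lay, with Ulk1 higher and Atg5 lower. The second-dimmest bin, where 2531 of 6756 were higher and 522 lower, held 6. Of these 4 were higher, Foxo3 1450236_at among them, and 0 lower, with a median of 1.04. The dimmest bin, where 2456 were higher and 299 lower, held 1, Atg7 1428611_at, which was lower.

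**Figure D3:**
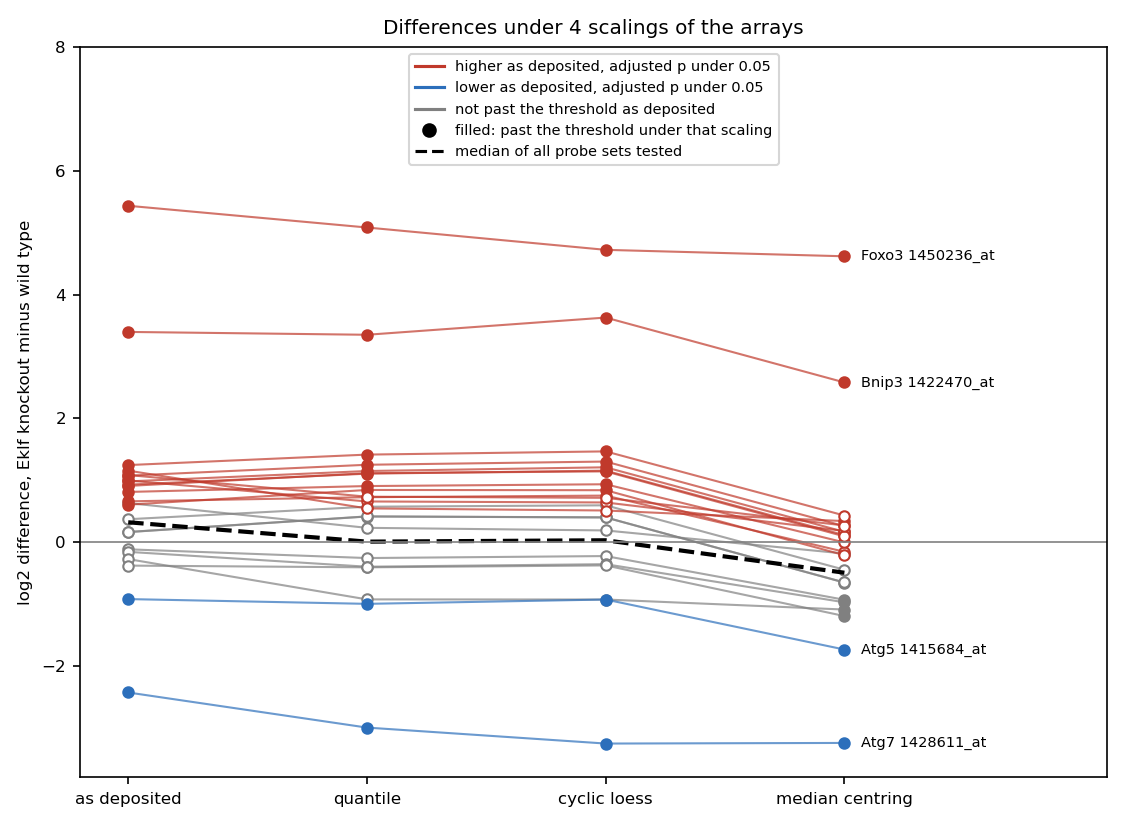
Log2 differences of the 23 tested probe sets with the signals as deposited and after quantile normalization, cyclic loess and median centring; colour gives the call as deposited, filled circles pass an adjusted p of 0.05 under that scaling, and the dashed line is the median of all probe sets tested. Bnip3 and 1415684_at of Atg5 keep their sign and call under all 4, and the group of smaller rises ends near 0 after median centring. Foxo3 1450236_at and Atg7 1428611_at keep theirs too, but they passed the filter only through the group where they are high, so this lends them no support.

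Genes around these 10 were read from lists drawn up with earlier results of these data known. Each gene was taken at its brightest probe set of its own and tested among 12799 genes, of which 48.7% passed, 27.9% higher and 20.8% lower, with a median difference of 0.14. The 3571 higher and 2661 lower became 2234 and 2727 after quantile normalization, 2292 and 2658 after cyclic loess and 1085 and 6133 after median centring, which moved the median to -0.68. In this fit 9 of the 10 genes were tested, since Bnip3l has no probe set of its own, and 5 were higher (Bnip3, Ulk1, Map1lc3a, Map1lc3b and Foxo3) and 1 lower (Atg5). After median centring these counts turned to 1 higher and 3 lower, and without KO array 2, KO array 3 or WT array 2 they were 3 and 1. With the probe sets of each gene averaged they were 4 and 0, and the call of Atg5 was lost (-0.449, limma adjusted p = 0.0911).

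Among 20 upstream kinases and FoxO factors 7 rose and 6 fell, with a median of 0.10. Higher were Stk11, the LKB1 kinase that activates AMPK, by 0.80, the AMPK catalytic subunit Prkaa2 by 1.59, from a dim WT mean of 95.9, and the AMPK subunit Prkab1 by 1.18. Lower were Akt1, the kinase that keeps FoxO proteins out of the nucleus, which fell by 1.35, Rheb, the activator of the mTOR complex, which fell by 0.88, and Sesn1, a stress-induced inhibitor of that complex, which fell by 1.04, although another Sesn1 probe set gave 1.46. After median centring Stk11 stood at -0.019, and the call of Prkaa2 was lost after median centring (0.772), quantile normalization (0.838) and cyclic loess (0.791).

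Of 19 genes of initiation and nucleation 8 rose and 5 fell, with a median of 0.49. Wipi1, a protein that binds phosphoinositide on the growing membrane, rose by 1.22, Ulk2, the second kinase of the Ulk pair, by 1.04, and Becn1, a subunit of the lipid kinase complex, by 0.77, which became -0.048 after median centring. Atg101, a subunit of the Ulk complex, fell by 2.53 to a mean signal of 126 on the KO arrays, against 662 on the WT arrays. Uvrag and Nrbf2, both partners of the lipid kinase, fell by 0.82 and 0.64.

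Of 15 genes of the conjugation systems 4 rose, 4 fell and 7 did not pass, with a median of 0.22. Atg3, which transfers LC3 to lipid, fell the most surely, at 1263 ± 138 on the KO arrays against 5002 ± 251 on the WT arrays (SD, n = 3 each), a difference of -1.99 ± 0.15 (SE, adjusted p = 1.91e-05). Atg10, which transfers Atg12, fell by 2.05 to a mean of 84.4 against 302. The Atg4 proteases, which trim and release LC3, moved both ways: Atg4a rose by 1.50, Atg4b by 0.88 (adjusted p = 0.0472, lost in 10 of 20 alternative fits), and Atg4c fell by 0.96.

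Among 14 tested cargo and mitophagy receptors and regulators 6 rose and 2 fell, with a median of 0.39. Beside Bnip3 these included Sqstm1, the cargo receptor p62, which rose by 1.27, Calcoco1 by 1.63, and Nbr1, a receptor related to p62, by 0.72, which became -0.097 after median centring. Fundc1, a mitochondrial receptor of the outer membrane, fell by 0.77 and Pink1, the kinase that marks damaged mitochondria, fell by 0.75 (adjusted p = 0.044, lost in 10 of 21 alternative fits).

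Of 19 tested genes of fusion and lysosome 3 rose, 5 fell and 11 did not pass, with a median of -0.044. The proteases Ctsl and Ctsd rose by 2.14 and 0.93 and the lysosomal channel Mcoln1 by 1.38. The lysosomal enzyme Hexa fell by 1.52, the membrane protein Lamp2 by 1.18 and Rab7, which guides fusion, by 0.82. Hepatocyte markers, given above, moved with the same grouping, and their part in these genes was not tested. Of 7 tested macrophage markers 5 were higher and 1, Csf1r, was lower. Csf1r, the brightest of them, had a mean of 4287 on the KO arrays against 8908 on the WT arrays. The summed signal of all 10 listed macrophage markers overlapped between the groups, and the part of macrophages was not tested either.

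Genes of the mitochondria themselves had few calls: of 22, 2 rose, 3 fell and 17 did not pass, with a median of -0.020. Ppargc1a, a coactivator of mitochondrial genes, rose by 1.61 from a dim mean of 71.6, and Dnm1l, the fission enzyme, by 0.79, which became -0.026 after median centring. Tfam, the packaging protein of mitochondrial DNA, fell by 0.92, although its other probe set gave 0.69. Sdha, of respiratory complex II, fell by 0.68, although its 2 other probe sets gave -0.345 and 0.941. Vdac3, an outer membrane channel, fell by 0.53. The call of Ppargc1a was lost after median centring (0.792), quantile normalization (0.751) and cyclic loess (0.726), that of Vdac3 after quantile normalization (-0.308) and cyclic loess (-0.299), and Dnm1l (adjusted p = 0.0458) kept its call in 12 of 20 alternative fits. After median centring 13 of the 22 were called, all lower, and after cyclic loess 8, of which 6 were higher.

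Of 18 hypoxia response genes 11 rose, 1 fell and 6 did not pass, with a median of 1.08. P4ha1, a collagen hydroxylase, rose by 2.33, Epas1, which encodes a hypoxia-inducible factor, by 2.10, and Ldha, lactate dehydrogenase, by 1.17. Pdk1, a kinase that limits pyruvate oxidation, fell by 0.69, but other probe sets of it rose by up to 2.55, and the call was lost after quantile normalization (-0.495) and cyclic loess (-0.466). Hif1a itself did not pass, at 0.14 (adjusted p = 0.662). After median centring 7 of the 18 passed, 2 higher and 5 lower.

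**Figure D4:**
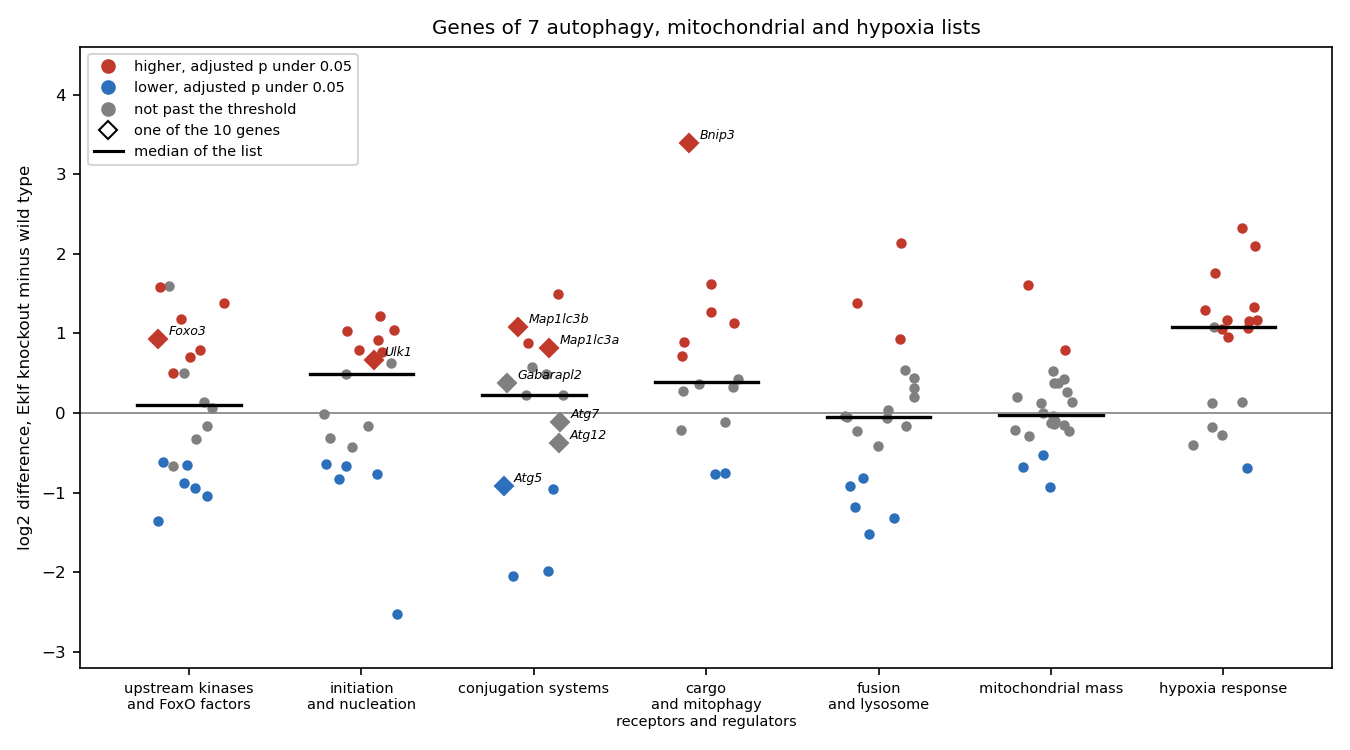
Log2 differences, KO minus WT, of the tested genes of 7 lists, each at its brightest probe set, with horizontal jitter for legibility; red and blue mark calls at an adjusted p under 0.05, diamonds the 10 genes where tested, and bars the list medians. Bnip3 at 3.40 is the highest point of the plot, and the hypoxia list has the highest median, 1.08.

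The genes whose profile over the 6 arrays was nearest to that of Bnip3, by the root mean square difference of log2 signals centred on each gene's mean, were St3gal1 (0.15), Ctse (0.254), Slc30a10 (0.262), Tuft1 (0.296) and Lamb1 (0.302). St3gal1, a sialyltransferase, gave 990, 2653 and 2170 on the KO arrays against 160, 191 and 236 on the WT arrays. Ctse, an aspartic protease of red cell precursors among other cells, gave 7894, 12520 and 13574 against 951, 1026 and 1536.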

How the data were processed

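RNA from sorted fetal liver cells of 6 samples was measured on 1 Affymetrix array each, from 10 micrograms of total RNA. The authors deposited MAS5 intensity values, linear and 1 per probe set, and the submitters' processing notes name Affymetrix Expression Console without a version. The 303 values below 1 were raised to 1 before log2. The platform annotation listed 35890 of 45101 probe sets, 34958 with 1 gene, and 34754 symbols were updated through RefSeq. The 64 control probe sets were left out of the tests. The comparison used limma 3.58.1 under R 4.3.3 (lmFit, eBayes with a variance trend, two-sided), once over 27023 probe sets and once over 12799 genes, and list values are from the second. Every adjusted p is limma's, Benjamini-Hochberg over all features tested. Labels do not say whether the embryos share litters, and nothing else separates technical from biological spread. The fits were tested on simulated data. Members and lists were chosen with earlier results of these data known. Genes named from a list were up to 3 called genes per direction with the smallest p. Hif1a was named outside this rule. Alternatives were other scalings, offsets, filters, variance models, probe set choices, the replicate number as a block and each array left out. Whether replicate numbers pair the samples is not settled. Correlations of deviations from the group means were 0.042, 0.054 and 0.076 for same-numbered arrays. They were -0.078 to 0.034 for arrays of different number. Figures used matplotlib 3.10.9 in Python 3.11.15.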

Additional observations from a re-analysis of the deposited data

How the results depend on the processing

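Counts of calls moved with the threshold, the scaling and the arrays included, and the number of arrays per group and the dim WT signals of 1450236_at of Foxo3 limit what can be said of fold sizes. At an adjusted p under 0.01, 3776 genes, 6147 probe sets and 8 of the 23 tested member probe sets passed. With equal medians 8 of the 23 passed, mostly downward, and the differences that turned sign were Ulk1 1448370_at (-0.155), Map1lc3a 1447883_x_at (-0.004), Gabarapl2 1423187_at (-0.445), Bnip3l 1416923_a_at (-0.21), Atg12 1451746_a_at (-0.183) and Map1lc3b 1415928_a_at (-0.651) and 1415929_at (-0.652), and, among listed genes, Becn1 (-0.048), Nbr1 (-0.097), Stk11 (-0.019) and Dnm1l (-0.026). This scaling lowers every probe set by the same amount. Atg7 1428612_at turned with array weights (0.158, or 0.147 in the fit over genes). Averaging the probe sets of a gene, Atg12 became 0.487, Pdk1 0.661 and Sdha 0.098, and with the probe set of largest spread Sesn1 became 1.458 and Pdk1 2.551, since other probe sets enter. The averaged difference of Atg5, -0.449, did not pass (limma adjusted p = 0.0911). With 1 array left out, 8 to 15 member probe sets passed, Atg7 1428612_at ran from -0.278 to 0.174 and Atg5 1418236_s_at from -0.277 to 0.01. The cause of these changes was not tested. With the replicate number as a block, a pairing that is not settled, 6277 genes, 11829 probe sets and 15 member probe sets passed, and no call of a member probe set changed. Bnip3 and Atg5 1415684_at kept sign and call in all 19 alternative fits of their probe sets. Atg7 1428611_at and Foxo3 1450236_at were not tested with the filter at the 60th percentile.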
